A study of Mus musculus with 22 samples.

Results

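Messenger RNA bound to ribosomes of inhibitory interneurons of the hippocampus was compared with that of granule cells of the cerebellum. The members were chosen by their labels: the 3 libraries of inhibitory interneurons, all of batch 2, and the 3 batch 1 libraries of cerebellar granule cells, 6 of the 22 libraries and 2 of the 6 cell types of the series. Both groups were 6-week-old mice that carried 1 RiboTag allele (B6N.129-Rpl22tm1.1Psam, Rpl22 fl/+), which puts an HA tag on ribosomal protein L22 in cells that express Cre, and 1 copy of a Cre transgene inherited from the father. No treatment was given to either group. In the interneuron group Cre came from Dlx6a-Cre, B6N.Tg(Dlx6a-cre)1Mekk, and each library pooled the hippocampi of 2 mice, a male and a female for replicates 1 and 2 and males alone for replicate 3. In the cerebellar granule cell group Cre came from Gabra6-Cre, B6.Tg(Gabra6-Cre)B1Lfr, in which the promoter of a granule cell GABA-A receptor gene drives the recombinase, and replicate 1 was female and replicates 2 and 3 male. A library holds RNA from any cell in which the transgene was or had been active, so fewer cells of a type and less RNA per cell cannot be told apart in these data. Cell type, brain region, Cre line and batch go together here. The batch 2 library labelled cerebellar replicate 3 served as the check on batch.

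Hippocampal interneurons are the local inhibitory neurons of that region. They make GABA from glutamate with the decarboxylases GAD65 and GAD67, load it into vesicles with the transporter VGAT, and are sorted into subclasses by the peptides and calcium-binding proteins they carry, such as somatostatin, vasoactive intestinal peptide, cholecystokinin and parvalbumin. They arise in the ventral forebrain under transcription factors of the Dlx and Lhx families. Cerebellar granule cells are small, densely packed excitatory neurons that arise from the rhombic lip. They release glutamate from parallel fibers onto Purkinje cells, and receive tonic inhibition through GABA-A receptors that hold the alpha-6 and delta subunits.

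Sequences before the RefSeq starts of a GABA synthesis gene, a peptide gene, the granule cell receptor gene and a granule cell transcription factor gene are given because the results turn on these 4 genes. They are RefSeq promoter sequences of GRCm38.p6, read 5′ to 3′ on the gene's strand. For Gad2 and Neurod1 the stretch ends where the GENCODE gene model begins, and for Sst 30 bases are given that lie inside the GENCODE gene model, which begins upstream of the RefSeq start. The 250 bases before each RefSeq start were searched on either strand for 5 motifs. The cAMP response element was searched as TGACGTCA. The E-box of helix-loop-helix factors was searched as CATATG. The other motifs were the GC box, spelled GGGCGG, the TATA box with the letters TATAAA, and the palindromic nuclear factor I site. Capitals mark the matches.
Gad2, + strand, chr2:22622077-22622204: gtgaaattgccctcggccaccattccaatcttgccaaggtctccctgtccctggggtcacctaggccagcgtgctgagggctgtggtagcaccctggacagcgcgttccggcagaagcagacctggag
Gabra6, - strand, chr11:42321073-42321322: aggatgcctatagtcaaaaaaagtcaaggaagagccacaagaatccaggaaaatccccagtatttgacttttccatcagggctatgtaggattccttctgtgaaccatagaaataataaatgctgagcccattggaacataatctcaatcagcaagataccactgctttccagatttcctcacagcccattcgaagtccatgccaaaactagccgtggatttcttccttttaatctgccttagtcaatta
Sst, - strand, chr16:23890874-23890903: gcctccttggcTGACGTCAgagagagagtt
Neurod1, - strand, chr2:79456752-79456886: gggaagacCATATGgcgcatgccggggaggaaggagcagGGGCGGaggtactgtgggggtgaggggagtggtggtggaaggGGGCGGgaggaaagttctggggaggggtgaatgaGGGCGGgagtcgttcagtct
The Sst sequence held the cAMP response element, 48 bases before the start, which was present in 1.55% of 32851 promoter sequences of the same length. The Neurod1 window held the E-box at 242 bases before the start, a motif found in 3.46% of promoters, and 4 GC boxes, a motif found in 32.7%, of which 3 lie in the stretch given. None of the 5 motifs was found in the 250 bases before Gad2 or Gabra6. The TATA box was found in 12.4% of the promoters and the nuclear factor I site in 0.0365%. A match describes the letters in the window and is not a measured binding site.

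Depth was similar in the groups, with 45944013 to 59763961 estimated counts in the interneuron libraries and 48481047 to 66185898 in the cerebellar libraries. Gene levels are given as CPM, estimated counts scaled to a library total of 1000000 after trimmed-mean (TMM) scaling, as mean ± SD with n = 3 per group. A gene was called higher in a group when edgeR's adjusted p (Benjamini-Hochberg over the 17063 genes tested) was at most 0.05 and the fitted difference was at least 2-fold. Log2 fold changes are interneurons over cerebellar granule cells, so positive values are higher in interneurons. The marker genes of both labels were measured first. Gad2 (ENSMUSG00000026787.3, chromosome 2 from 22622205 to 22693874 of GRCm38), which encodes GAD65, was at 1228, 1275 and 1189 CPM in the interneuron libraries and 2.78, 2.31 and 2.27 CPM in the cerebellar ones. Gabra6 (ENSMUSG00000020428.13, chromosome 11 from 42306437 to 42321072), which encodes the alpha-6 subunit, was at 0.0740, 0.0606 and 0.0391 CPM in the interneuron libraries and 3282, 3311 and 3373 CPM in the cerebellar ones. Each marker was high in every library of its own label and near 0 in every library of the other, with log2 fold changes of 8.96 (standard error 0.07, adjusted p = 1e-12) for Gad2 and -15.74 (standard error 0.08, adjusted p = 1.3e-13) for Gabra6. The cerebellar library of batch 2 stood at 2.23 CPM for Gad2 and 3334 CPM for Gabra6.

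Replicates of a group resembled each other closely, with Pearson correlations of log2 CPM across genes of 0.996 to 0.9986, where genes are not independent replicates. Among genes at 10 CPM or more on average, 47 of 9343 differed by more than 2-fold between interneuron libraries, and 17 of 8823 between cerebellar libraries. Interneuron replicate 3, the pool of 2 males, stood apart from the other two in a small group of genes, named here after their values were seen. Zic1, a zinc finger factor, was at 77.3, 59.8 and 4.38 CPM in replicates 1 to 3. Zic2 was at 37.6, 26.4 and 2.17 CPM, and Prkcd, a protein kinase C, at 50.6, 32.9 and 4.75 CPM. Glp1r, the receptor of glucagon-like peptide 1, was at 28.5, 28.9 and 2.44 CPM. Replicate 3 was the low library for these genes and the high one for several genes best known from striatal neurons. Adora2a, an adenosine receptor, was at 3.01, 2.08 and 25.1 CPM in replicates 1 to 3. Ppp1r1b, which encodes the dopamine-regulated phosphatase inhibitor DARPP-32, was at 31.7, 24.7 and 134 CPM. Penk, the enkephalin precursor, was at 87.1, 76.3 and 196 CPM. The same 3 libraries differed by less than 1.5-fold for Gad2, Slc32a1, Sst, Npy and Lhx6. Without replicate 3 the log2 fold change of Ppp1r1b went from 1.68 to 0.51 and was no longer called, that of Adora2a from 5.96 to 3.98, that of Zic1 from -5.73 to -5.20 and that of Zic2 from -5.26 to -4.74. Without this library 4729 of the 4816 genes called higher in interneurons and 2996 of the 3050 called higher in cerebellar granule cells were called again.

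**Figure D1:**
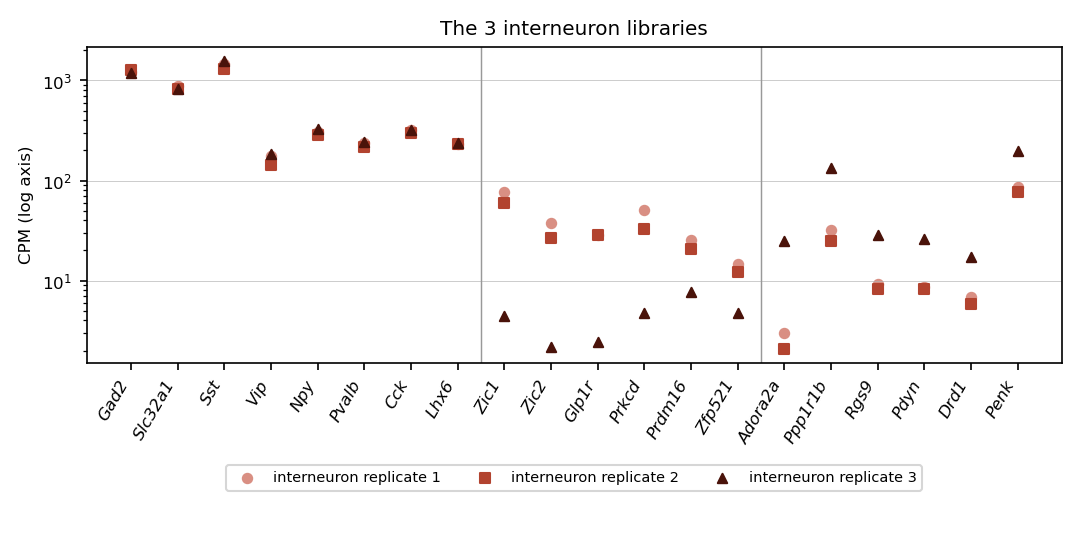
Level of 20 genes in each of the 3 interneuron libraries, in CPM on a log axis, with 1 symbol per replicate. Transmitter, peptide and lineage genes on the left lie close together, whereas replicate 3 lies below the others for the 6 genes in the middle (Zic1 at 4.38 CPM against 77.3 and 59.8) and above them for the 6 genes on the right (Adora2a at 25.1 CPM against 3.01 and 2.08).

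Markers of cells other than the labelled ones were higher in the interneuron libraries. Over all genes tested, the shares called were 28.2% higher in interneurons and 17.9% higher in cerebellar granule cells. Of 12 oligodendrocyte markers, 12 were called higher in interneurons, with a median log2 fold change of 5.38. Mbp, a myelin protein gene, was at 1095, 1068 and 1029.7 CPM in the interneuron libraries and 117, 110.4 and 108 CPM in the cerebellar ones. The summed level of the 12 genes, in CPM of the plain library totals, ranged from 3662.4 to 3849.4 in interneuron libraries, from 168 to 196 in the 4 cerebellar libraries, and from 1687 to 1892 in the astrocyte libraries of the series. Their levels moved with the comparison, and their part in the results was not tested. The summed level of 9 microglia markers was low in both groups, at 30.2 to 32.1 CPM in interneurons and 6.74 to 9.49 CPM in the cerebellar libraries, against 38393 to 40046 CPM in microglia. All 9 were called higher in interneurons, and Tmem119, a defining microglia gene, was at 0.675 ± 0.120 CPM there. With the batch 2 cerebellar library alone in place of the batch 1 libraries, the log2 fold change of C1qb went from 4.76 to 1.72. That of C1qc went from 4.21 to 1.47, that of P2ry12 from 3.64 to 2.35 and that of Tmem119 from 2.75 to 2.34. The part of batch in these values was not tested. Of 12 astrocyte markers, 9 were called higher in interneurons and 0 higher in cerebellar granule cells, with sums of 453 to 502 and 208 to 235 CPM against 37880 to 40092 CPM in astrocytes. Of 8 vascular and blood markers, 4 were called higher in interneurons, with sums of 51.2 to 63.3 and 12 to 18 CPM. No member of these lists was at 0 in a whole group.

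Markers of other neurons of both regions were also measured. Of 14 genes marking excitatory neurons of the hippocampus, 10 were called higher in interneurons and 2 higher in cerebellar granule cells. The shares over all genes were 28.2% and 17.9%. The summed level of this list was 1330 to 1675 CPM in the interneuron libraries and 1302 to 1419 CPM in the cerebellar libraries, against 11921 to 12282 CPM in dentate gyrus granule cells. The list had 1 member, Spink8, at 0 counts in the cerebellar libraries, where Slc17a7, which encodes the vesicular glutamate transporter VGLUT1, made up most of the sum. In interneurons the sum rested mainly on Camk2a, the alpha subunit of a calcium-dependent kinase abundant in excitatory forebrain neurons, at 1172, 1060.3 and 805 CPM, against 2.80, 2.33 and 2.56 CPM in the cerebellar libraries. Neurod6, a transcription factor gene of forebrain excitatory neurons, was at 4.97 ± 0.104 CPM in interneurons, and Slc17a7 at 54.0 ± 4.52 CPM. Among 15 tested genes marking Purkinje cells and other cerebellar neurons, 6 were higher in interneurons and 7 in cerebellar granule cells, against the same 28.2% and 17.9%. Pcp2, a defining Purkinje cell gene, was at 3.06 ± 0.188 CPM in the cerebellar libraries, and Eomes, which marks unipolar brush cells, was at 69.1, 69.9 and 57.4 CPM there against 0.185, 0.303 and 0.0782 CPM in interneurons. The part of these neurons in the results was not tested.

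The sex-linked genes followed the labelled sexes. Ddx3y, on the Y chromosome, was at 0, 147 and 91.1 CPM in cerebellar replicates 1 to 3, of which the first was female, and at 23.1, 31.6 and 46.2 CPM in the interneuron pools. Xist was at 12.5, 0.0453 and 0.0614 CPM and 19.3, 38.9 and 0 CPM in the same order. None of the 5 tested sex-linked genes was called, and sex is not balanced between the groups. Without cerebellar replicate 1, the female library, 4709 of the 4816 genes called higher in interneurons and 2984 of the 3050 called higher in cerebellar granule cells were called again.

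The cell types differed in a large share of their ribosome-bound mRNA. Of the genes tested, 84.8% had an adjusted p of at most 0.05. In 44.9% every interneuron library lay above every cerebellar one, and in 41.3% every cerebellar library lay above every interneuron one. Of 17063 genes tested, 4816 (28.2%) were called higher in interneurons and 3050 (17.9%) higher in cerebellar granule cells. At an 8-fold difference, 2420 genes (14.2%) were higher in interneurons and 467 (2.74%) in cerebellar granule cells. The median log2 fold change over the genes tested was 0.05, and 61.2% of the calls were higher in interneurons. This split depended on scaling, and with library totals alone, which moved the median to 0.34, 71.9% of the calls (5585 and 2182 genes) were higher in interneurons. In the batch check, the batch 2 cerebellar library lay below every interneuron library for 4798 of the 4816 genes called higher in interneurons, and above every one for 3032 of the 3050 called higher in cerebellar granule cells. The same RNA sample in both batches differed by an SD of 0.08 in log2 ratio over 8810 genes at 10 CPM or more, with 7 genes over 2-fold. With that batch 2 library alone against the 3 interneuron libraries, all of batch 2, 4985 genes were called higher in interneurons and 3252 higher in cerebellar granule cells, among them 4451 and 2885 of the genes called in the comparison across batches. The lone library is assumed to vary like the interneuron libraries in that fit.

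**Figure D2:**
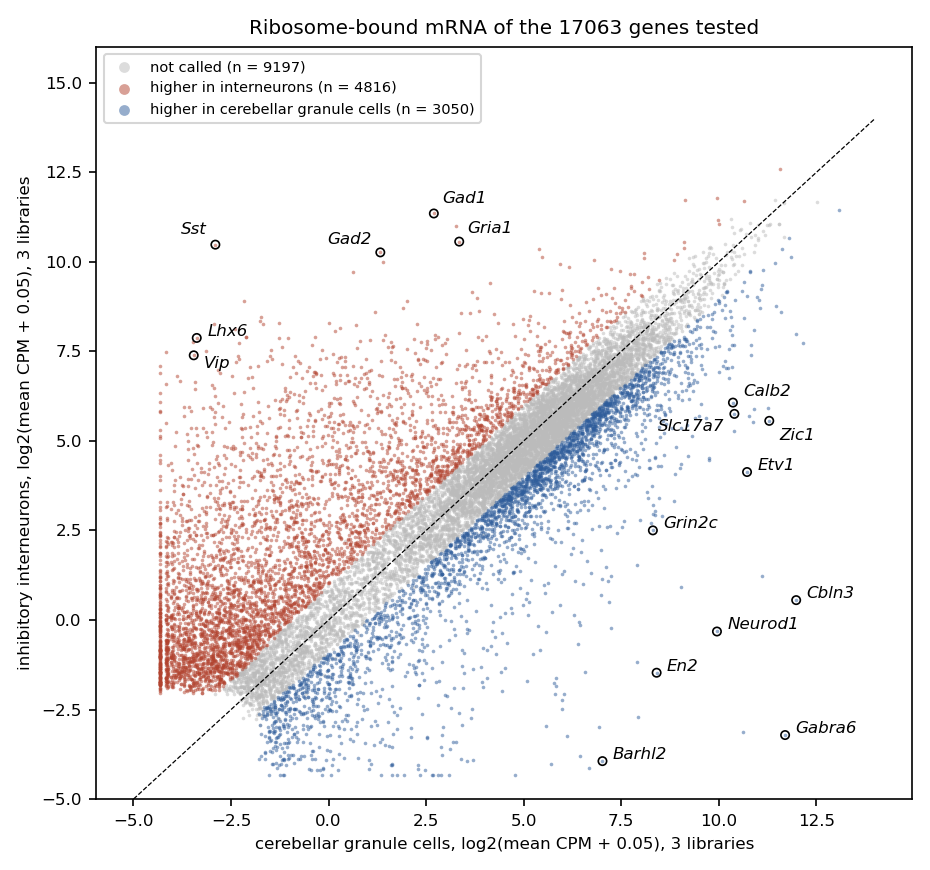
Mean level of each of the 17063 genes tested in cerebellar granule cells (x axis) and interneurons (y axis), as log2 of the mean CPM of 3 libraries plus 0.05, coloured by call. The diagonal marks equal levels, 2420 of the 4816 genes higher in interneurons differ by 8-fold or more against 467 of the 3050 higher in cerebellar granule cells, and Gad2, Sst, Gabra6 and Cbln3 lie near the far corners.

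The largest differences were ranked among called protein-coding genes at 50 CPM or more in their higher group, with no overlap between the groups. The 10 largest towards interneurons included Crhbp, Rxfp3, Dlx2, Dlx5, Krt73, Sst, Elfn1 and Npas1. Crhbp, which encodes a binding protein of corticotropin-releasing hormone, was at 140.2, 126 and 144 CPM in the interneuron libraries and at 0 counts in the 3 cerebellar libraries. Against a floor of 3 counts per library this was at least 2286-fold higher. Each of these was near 0 in the cerebellar libraries. Rxfp3, the receptor of the peptide relaxin-3, was at least 1352-fold higher (85.6, 83.1 and 73.8 CPM), and Krt73, a keratin gene, at least 928-fold higher (61.8, 50.9 and 53.8 CPM), both with 0 counts in the 3 cerebellar libraries. Elfn1, a synaptic adhesion protein of somatostatin interneurons, was at 219, 217 and 210.5 CPM against 0.0393 ± 0.0352 CPM, a log2 fold change of 12.34. Counting intervals and floors cover counting error alone. The distance between the groups follows from the way these genes were chosen. In each of them the interneuron libraries lay close to each other.

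The 10 largest differences towards cerebellar granule cells belonged to Gabra6, Fat2, Uncx, Barhl2, Barhl1, Cnpy1, Cbln3, Crtam, Mybpc3 and Neurod1. Fat2, a giant protocadherin of granule cells, was at 1551, 1544 and 1662 CPM in the cerebellar libraries and 0.111, 0.0455 and 0.0391 CPM in the interneuron libraries, a log2 fold change of -14.54 (standard error 0.11, adjusted p = 8.9e-13). Uncx, a homeobox gene, was at 98.5, 107 and 103 CPM and held 1 count in all in the interneuron libraries, a ratio of 15746 (95% counting interval 2826 to 621990). Some of these genes are better known from other tissues. Crtam, known as a receptor of lymphocytes, was at 239, 245 and 252 CPM against 0.104 ± 0.0794 CPM. Mybpc3, known as a myosin-binding protein of heart muscle, was at 121, 122 and 119.7 CPM against 0.0768 ± 0.0783 CPM. Cnpy1, a gene of the midbrain-hindbrain region, was at 86.4 ± 3.71 CPM against 0.0224 ± 0.0197 CPM. The highest interneuron value among these 5 genes was 0.196 CPM, for Crtam.

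Genes for making, packaging and taking up GABA were higher in interneurons, 8 of 8 tested against 28.2% of all genes, with a median log2 fold change of 6.47. Gad1, which encodes GAD67, was at 2642, 2614 and 2582 CPM in the interneuron libraries and 7.0, 6.34 and 5.95 CPM in the cerebellar ones, a log2 fold change of 8.66 (standard error 0.07, adjusted p = 8.9e-13). Slc32a1, which encodes VGAT, was at 882, 817 and 815 CPM against 1.77, 1.36 and 1.39 CPM. The interneuron libraries of these genes lay far above the cerebellar ones, with no overlap. The enzymes that break GABA down differed less. Abat, GABA transaminase, was at 929 ± 26.7 against 71.6 ± 6.77 CPM, 13-fold, and Aldh5a1, the next enzyme of the pathway, at 268 ± 8.42 against 63.8 ± 3.19 CPM, 4.20-fold. Slc6a11, a GABA transporter best known from astrocytes, was at 46.0 ± 6.49 against 1.25 ± 0.258 CPM, in libraries whose astrocyte marker sums also differed. Slc6a13, a transporter of the meninges, was near the floor in both groups at 0.449 ± 0.155 and 0.183 ± 0.0595 CPM. Its call was lost without interneuron replicate 3 (log2 fold change 0.93) and with the batch 2 cerebellar library in place of replicate 3 (0.97).

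Of 13 glutamate genes, 5 were higher in interneurons, against 28.2% of all genes, and 3 higher in cerebellar granule cells, against 17.9%, with a median log2 fold change of 0.34. These counts are close to those shares. The 3 vesicular transporters were among the genes called. Slc17a7 was at 1403, 1368 and 1278 CPM in the cerebellar libraries and 51.1, 51.7 and 59.2 CPM in the interneuron libraries, a log2 fold change of -4.64 (standard error 0.07, adjusted p = 1.4e-11). Slc17a6, which encodes VGLUT2, was called in the same direction, at 2.90, 3.35 and 2.84 CPM in the cerebellar libraries and 0.185, 0.561 and 0.274 CPM in interneurons. Slc17a8, which encodes VGLUT3, a transporter known from a subset of cholecystokinin interneurons, went the other way, at 39.9, 41.9 and 42.4 CPM in interneurons against 0.0833, 0.181 and 0.0614 CPM. Per length, Slc17a7 was at 752 TPM (a level scaled to transcript length and library) and Slc17a6 at 1.76 TPM in cerebellar granule cells. Glul, glutamine synthetase, and the transporters Slc1a1, Slc1a2 and Slc38a3 were called higher in interneurons, with Glul at 549 ± 10.4 against 139 ± 1.77 CPM. Glul and Slc1a2 are also abundant in astrocytes.

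**Figure D3:**
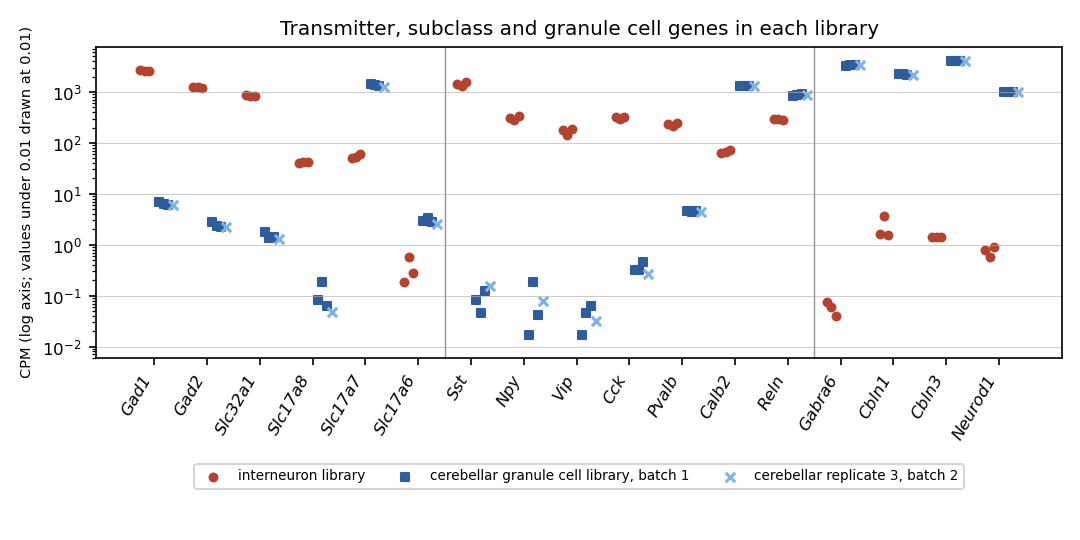
Level of 17 genes in each library, in CPM on a log axis, for the 3 interneuron libraries, the 3 batch 1 cerebellar granule cell libraries and the batch 2 library of cerebellar replicate 3. Transmitter genes are on the left, interneuron subclass genes in the middle and granule cell genes on the right. The interneuron and batch 1 cerebellar libraries do not overlap for these genes, and Reln, at 3.01-fold, differs least. For Gabra6 the batch 2 cerebellar library, at 3334 CPM, lies among the batch 1 libraries, at 3282 to 3373 CPM.

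Transcription factors of the interneuron lineage were higher in interneurons in 21 of 25 cases, against 28.2% of all genes, and higher in cerebellar granule cells in 2. The median log2 fold change was 7.92, or 6.78 with the 5 genes that had no count in the cerebellar libraries set at their bound. These were Dlx2, at 70.6, 68.2 and 66.0 CPM in interneurons and at least 1142-fold higher, Dlx5, at 54.4, 58.6 and 58.7 CPM and at least 958-fold higher, and the low genes Gsx2, Isl1 and Lhx8, which were at least 37.8-, 38.3- and 6.06-fold higher. The Dlx factors specify GABA neurons of the ventral forebrain, and Dlx6, whose regulatory sequence names the Cre line, was at 59.7, 54.2 and 54.9 CPM against 0.133, 0.317 and 0.266 CPM. Lhx6, which marks interneurons of the medial ganglionic eminence, was at 232, 234 and 239 CPM against 0.050, 0.0680 and 0.0205 CPM, a log2 fold change of 12.26 (standard error 0.09, adjusted p = 8.9e-13). Npas1, a factor that limits interneuron numbers, was at 114, 103 and 120.0 CPM with 3 counts in the cerebellar libraries. Each of these factors was far above its cerebellar level in every interneuron library. Factors of the caudal eminence were present beside Lhx6, with Sp8 at 21.8, 18.4 and 14.4 CPM and Nr2f2 at 64.6, 79.1 and 71.4 CPM in the interneuron libraries. Zeb2, a zinc finger factor of migrating interneurons, was at 224 ± 7.13 CPM in interneurons against 2.03 ± 0.0696 CPM.

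Both members that went the other way were well expressed in cerebellar granule cells. St18, a zinc finger gene, was at 318, 323 and 348 CPM in the cerebellar libraries and 7.95, 7.76 and 7.12 CPM in interneurons, a log2 fold change of -5.44 (standard error 0.06). Prox1, a homeobox gene shared by caudal interneurons and granule cells of the dentate gyrus, was at 104 ± 4.28 against 43.8 ± 3.72 CPM, and fell short of 2-fold with library totals alone (log2 fold change -0.96). Maf and Nr2f1 were not called, at 1.47- and 1.69-fold, though Nr2f1 passed 2-fold with library totals alone (log2 fold change 1.04).

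Transcription factors of the granule cell lineage showed the opposite pattern, with 19 of 23 tested higher in cerebellar granule cells, against 17.9% of all genes, and 2 higher in interneurons, and a median log2 fold change of -4.52. Neurod1, a basic helix-loop-helix factor of granule cell differentiation, was at 998, 978 and 995 CPM in the cerebellar libraries and 0.777, 0.576 and 0.900 CPM in interneurons, a log2 fold change of -10.39 (standard error 0.09, adjusted p = 1e-12). En2, a hindbrain homeobox gene, was at 347, 348 and 322 CPM against 0.333, 0.364 and 0.235 CPM. Barhl2 and Barhl1 are homeobox genes downstream of the rhombic lip factor Atoh1. Barhl2 was at 132, 131 and 126 CPM, with 3 counts in all in the interneuron libraries, a ratio of 8548 (95% counting interval 2924 to 41451). Barhl1 was at 54.9, 52.1 and 49.2 CPM, with 2 counts in all in the interneuron libraries, a ratio of 4499.8 (95% counting interval 1245 to 37162). Etv1, an ETS factor of maturing granule cells, was at 1637, 1706 and 1727 CPM against 18, 17.6 and 16.9 CPM. Pax6 and En1 were 82.9- and 123-fold higher in cerebellar granule cells. For these genes no interneuron library came near a cerebellar one.

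The Zic factors, zinc finger regulators of granule cell progenitors, were at high levels in cerebellar granule cells. Zic1 was at 2531, 2531 and 2461 CPM in the cerebellar libraries, far above the highest interneuron library at 77.3 CPM. Zic2 was at 873, 896 and 791 CPM, against at most 37.6 CPM in interneurons. Zic4 and Zic5 were called the same way. Interneuron replicate 3 was the lowest interneuron library for these 4 genes. Nuclear factor I genes, which act in late granule cell maturation, were also higher in cerebellar granule cells: Nfia 18.8-fold, Nfix 6.30-fold and Nfib 3.64-fold. Meis1 and Meis2, paralogous homeobox genes, split between the cells. Meis1 was at 89.5, 94.1 and 91.4 CPM in the cerebellar libraries and 1.83, 2.18 and 1.88 CPM in interneurons, whereas Meis2 was at 0.533, 0.113 and 0.389 CPM and 35.2, 32 and 28.1 CPM. Insm1, the other member higher in interneurons, was low at 3.21 ± 0.575 against 0.524 ± 0.201 CPM. The progenitor genes Atoh1 and Nhlh1 did not pass the filter on low counts.

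Interneuron subclass markers were higher in interneurons in 25 of 30 cases, against 28.2% of all genes, of which 23 were over 8-fold, against 14.2%, and higher in cerebellar granule cells in 2. The median log2 fold change was 8.95, or 8.47 with the 5 genes that had no count in the cerebellar libraries set at their bound. Sst was at 1446, 1289.5 and 1552 CPM in the interneuron libraries and 0.0833, 0.0453 and 0.123 CPM in the cerebellar ones, a log2 fold change of 14 (standard error 0.14, adjusted p = 2.3e-12). Npy, the neuropeptide Y gene, was at 308, 283 and 329 CPM against 0.0167, 0.181 and 0.0409 CPM. Vip was at 175, 143 and 185 CPM against 0.0167, 0.0453 and 0.0614 CPM. The peptide genes thus stood near 0 in every cerebellar library. Per length, Sst led the peptides of the interneuron libraries at 5142, 4912 and 5849 TPM, above Npy at 1738, 1754 and 1959 TPM, Cck at 1221, 1227 and 1291 TPM and Vip at 348, 305 and 388 TPM, and the ranges of these 4 genes did not overlap. Pvalb, the parvalbumin gene, was at 602, 582 and 645 TPM and lay between Cck and Vip. Htr3a, the ionotropic serotonin receptor of caudal interneurons, was at 102 ± 3.27 CPM, Lamp5, a marker of neurogliaform cells, at 141 ± 2.67 CPM, and Ndnf at 155 ± 11.4 CPM. Subclass genes with no count in the cerebellar libraries were Crhbp, Tac2, Akr1c18, Grpr and Chodl.

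Among the interneuron subclass markers 2 were higher in cerebellar granule cells, and 3 were not called. Calb2, the calretinin gene, was at 1301, 1333 and 1312 CPM in the cerebellar libraries and 62.0, 67.3 and 72.3 CPM in interneurons, a log2 fold change of -4.29 (standard error 0.06, adjusted p = 8.9e-12). Reln, which encodes the secreted glycoprotein reelin, was at 836, 882 and 898 CPM against 296, 293 and 279.6 CPM. Calretinin and reelin are known products of granule cells as well as of interneurons. Nos1, neuronal nitric oxide synthase, was at 240.2, 240.5 and 237 CPM in interneurons and 239, 319.9 and 309 CPM in cerebellar granule cells, where the groups overlapped. Cnr1, the cannabinoid receptor CB1, was at 1008, 1064 and 1003 CPM and 818, 804 and 812 CPM, which did not overlap but differed 1.26-fold, and Id2 differed 1.35-fold.

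Of 17 GABA-A receptor subunits tested, 9 were higher in interneurons, against 28.2% of all genes, and 3 higher in cerebellar granule cells, a share near the 17.9% of all genes (median log2 fold change 1.83). The receptor is a pentamer, commonly of alpha, beta and either gamma or delta subunits. In the cerebellar libraries Gabra6 was at 3899.9, 3869.9 and 3916 TPM and exceeded per length every other subunit. Gabrd, which encodes the delta subunit of extrasynaptic receptors, was at 371, 356 and 335 TPM there and at 53.6, 50.6 and 57.7 TPM in interneurons. Gabrd was at 369, 359 and 342 CPM in the cerebellar libraries against 50.0, 45.6 and 52.5 CPM in interneurons, 7.23-fold.

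Gabra2, Gabra3, Gabra4 and Gabra5 were called higher in interneurons, and in cerebellar granule cells the highest of these 4 was Gabra4 at 1.52 TPM. Gabra2 was at 112, 118 and 96.0 CPM in interneurons against 1.72, 1.63 and 1.31 CPM. Gabra3 was at 96.6, 98 and 94.3 CPM against 1.25, 1.09 and 0.921 CPM. Gabra5, a subunit of extrasynaptic hippocampal receptors, was at 31.2, 31.6 and 28.7 CPM against 0.217, 0.136 and 0.164 CPM. Gabrg3 had the largest difference towards interneurons in this family, at 87.7, 91.4 and 83.7 CPM against 0.0667, 0 and 0.0614 CPM, a log2 fold change of 10.83 (standard error 0.16). Among the beta subunits, Gabrb2 was 2.03-fold higher in cerebellar granule cells, a call lost with upper quartile scaling or library totals alone (log2 fold changes of -0.88 and -0.74), and Gabrb1 5.93-fold higher in interneurons.

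Ionotropic glutamate receptor subunits were higher in interneurons in 10 of 18 cases, against 28.2% of all genes, and in cerebellar granule cells in 3, a share near the 17.9% of all genes (median log2 fold change 2.64). Among AMPA receptor subunits, Gria1 was at 1585, 1562 and 1401 CPM in interneurons and 10.3, 10.1 and 9.94 CPM in cerebellar granule cells, a log2 fold change of 7.23 (standard error 0.07, adjusted p = 1.4e-12). Gria3 was 47.5-fold higher in interneurons. Gria2, whose edited product limits calcium entry, was at 263, 268 and 223 CPM against 149.6, 139.9 and 154 CPM. Gria4 was at 229, 231 and 219 CPM against 306, 286 and 311 CPM. The groups did not overlap for either gene, but neither reached 2-fold, except Gria2 with library totals alone (log2 fold change 1.05). Per length, Gria1 led in interneurons at 657 TPM, and Gria4 led in cerebellar granule cells at 195 TPM against 3.87 TPM for Gria1.

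Among NMDA receptor genes the obligatory subunit was not called, and several modulatory subunits were. Grin1 was at 611, 576 and 575 CPM in interneurons and 611, 603 and 581 CPM in cerebellar granule cells, and the groups overlapped. They overlapped also for Grin2a, at 129, 152 and 134 CPM and 128, 155 and 198 CPM. Grin2b was at 375, 421 and 376 CPM in interneurons and 2.32, 1.95 and 2.39 CPM in cerebellar granule cells, 175-fold. Grin2d, a subunit known from interneurons, was 137-fold higher in interneurons, and Grin3a 151-fold. Grin2c, the subunit of mature granule cells, was at 332, 319 and 301 CPM in the cerebellar libraries against 5.10, 5.35 and 6.4 CPM, a log2 fold change of -5.82 (standard error 0.08). The kainate subunit Grik2 was 2.39-fold higher in cerebellar granule cells (log2 fold change -0.97 with library totals alone, under 2-fold), whereas Grik1, Grik3, Grik4 and Grik5 were called higher in interneurons. Grid1, a delta receptor gene, was 125-fold higher in interneurons.

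**Figure D4:**
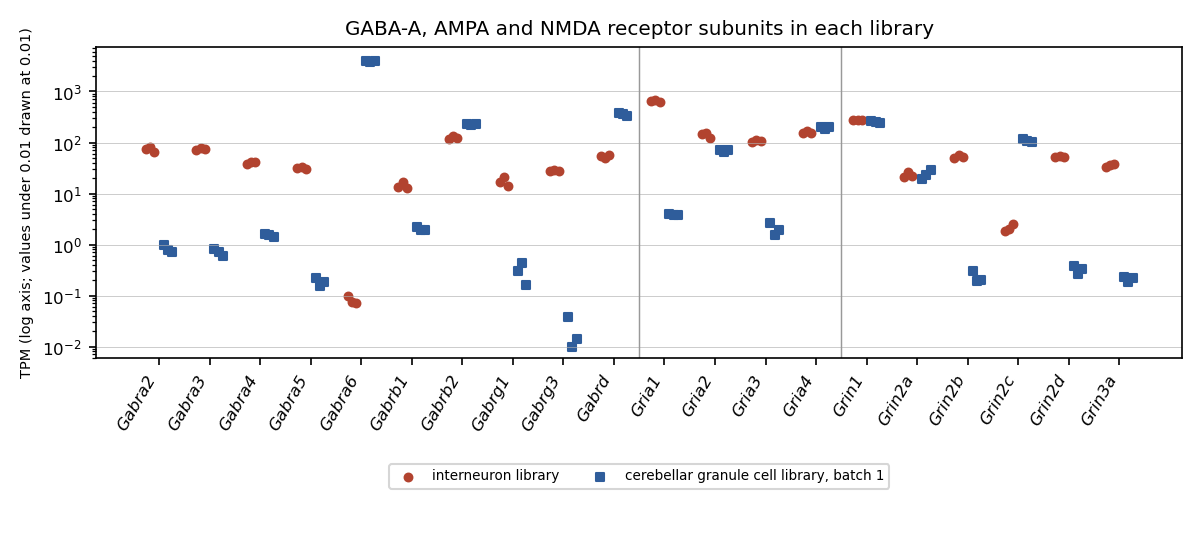
Level of GABA-A (left), AMPA (middle) and NMDA (right) receptor subunits in each of the 3 interneuron and 3 cerebellar granule cell libraries, in TPM on a log axis, with values under 0.01 drawn at 0.01. Gabra6 and Grin2c stand above the interneuron libraries, whereas Gria1, Grin2b, Grin2d, Gabra5 and Gabrg3 stand above the cerebellar ones, and Grin1 and Grin2a lie close together.

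Of 13 metabotropic receptor genes tested, 8 were higher in interneurons, against 28.2% of all genes, and 2 higher in cerebellar granule cells, a share near the 17.9% of all genes (median log2 fold change 3.28). Grm4, the presynaptic glutamate receptor of parallel fibers, was at 1346, 1339 and 1319 CPM in the cerebellar libraries and 41.7, 40.9 and 34.2 CPM in interneurons, a log2 fold change of -5.10 (standard error 0.08). Grm5 was at 226, 247 and 210.0 CPM in interneurons against 2.37, 2.54 and 2.78 CPM. The GABA-B receptor genes Gabbr1 and Gabbr2 differed 1.74- and 1.40-fold and were not called. Gabbr1 passed 2-fold with library totals alone, at a log2 fold change of 1.08. The auxiliary subunits that set the kinetics of this receptor did differ. Kctd12 was 3.41-fold and Kctd16 465-fold higher in interneurons, and Kctd8 was 2.51-fold higher in cerebellar granule cells. The Kctd16 ratio rests on 4 counts in all in the cerebellar libraries, so its size is uncertain.

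Of 34 voltage-gated potassium channel alpha subunits, 23 were higher in interneurons, against 28.2% of all genes, and 4 higher in cerebellar granule cells, against 17.9% (median log2 fold change 3.10). The Kv3 genes, which allow fast repolarization, included the largest difference of the list. Kcnc2 was at 469, 463 and 522 CPM in interneurons and 0.200, 0.113 and 0.205 CPM in cerebellar granule cells, a log2 fold change of 11.40 (standard error 0.11, adjusted p = 1.5e-12). Kcnc1 was at 1444 ± 22.8 CPM in cerebellar granule cells against 854 ± 31.5 CPM in interneurons. Kcnc4 was at 58.1 ± 6.93 against 60.9 ± 0.495 CPM in the same order, and neither was called. Kcnd2, a subunit of A-type current, was at 734, 728 and 782 CPM in the cerebellar libraries against 60.6, 63.2 and 73.5 CPM. Kcna1 and Kcnh1 were 3.12- and 2.05-fold higher in cerebellar granule cells. Kcnh1 fell short of 2-fold with upper quartile scaling, with library totals alone and without cerebellar replicate 1 (log2 fold changes of -0.89, -0.75 and -0.99). The silent subunits Kcnf1 and Kcns3, which modify Kv2 channels, were 1049.9- and 667-fold higher in interneurons, at 36.7 ± 1.11 and 40.8 ± 1.11 CPM. These ratios rest on 5 and 9 counts in all in the cerebellar libraries, so their size is uncertain.

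Of 13 leak and pacemaker channels, 5 were higher in interneurons, against 28.2% of all genes, and 5 higher in cerebellar granule cells, against 17.9% (median log2 fold change 0.47). The 5 higher in cerebellar granule cells were leak potassium channels, which carry background current. Kcnk10 was at 84.9, 87.2 and 91.4 CPM in the cerebellar libraries against 3.11, 4.41 and 3.52 CPM, and Kcnk12 was at 93.3 ± 0.966 against 9.16 ± 0.442 CPM. Kcnk3, known as TASK-1, was at 284 ± 15.0 against 52.3 ± 5.27 CPM, Kcnk9, known as TASK-3, at 111 ± 2.18 against 29.6 ± 3.99 CPM, and Kcnk1 at 330.1 ± 11.2 against 78.5 ± 0.855 CPM. Of those higher in interneurons, Hcn2, Hcn3 and Hcn4 carry the hyperpolarization-activated current, at 261 ± 12.2, 47.0 ± 2.66 and 14.4 ± 1.12 CPM against 72.9 ± 5.59, 3.73 ± 0.329 and 1.93 ± 0.326 CPM. The other two were the leak channels Kcnk13 and Kcnk4.

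Of 27 sodium and calcium channel genes, 10 were higher in interneurons, against 28.2% of all genes, and 8 higher in cerebellar granule cells, against 17.9% (median log2 fold change 0.04). Scn1a and Scn8a, alpha subunits of most adult neurons, differed 1.03- and 1.16-fold. Scn2a was at 957, 917 and 998 CPM in cerebellar granule cells against 190.1, 210.0 and 190.1 CPM, while Scn3a, an alpha subunit of immature neurons, was at 0.0833, 0 and 0.246 CPM against 18.2, 20.3 and 18.4 CPM. The beta subunit gene Scn3b was 116-fold higher in interneurons and Scn2b 2.14-fold higher in cerebellar granule cells, a call lost with upper quartile scaling or library totals alone (log2 fold changes of -0.95 and -0.82). Among intracellular fibroblast growth factors, which bind sodium channels, Fgf14 was 5.61-fold higher in cerebellar granule cells and Fgf13 5.25-fold higher in interneurons. Of the calcium channels, Cacna1e (R type) was at 384, 403 and 409.9 CPM in cerebellar granule cells against 47.0, 50.5 and 36.4 CPM, and Cacna1a (P/Q type) was 3.95-fold higher there. Cacna1h (T type) was at 29.1, 25.4 and 29.5 CPM in interneurons against 0.333, 0.136 and 0.286 CPM. Scn4b, at 37.9, 43.6 and 80.8 CPM, was highest in interneuron replicate 3, and its log2 fold change of 3.64 was 3.23 without that library.

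Of 23 receptor genes listed for their use by interneurons, 20 were higher in interneurons, against 28.2% of all genes, and 1 higher in cerebellar granule cells (median log2 fold change 6.19, or 6.15 with the 2 genes that had no count in the cerebellar libraries at their bound). Erbb4, the neuregulin receptor, was at 296, 361 and 324 CPM against 56.4, 66.5 and 72.9 CPM, 5.02-fold. Oprd1, the delta opioid receptor, was at 80.1, 70.1 and 74.3 CPM against 0.450, 0.521 and 0.368 CPM, and Oprm1, the mu receptor, at 4.31 ± 0.340 against 0.410 ± 0.0849 CPM. The receptors of neuropeptide Y were low but present in interneurons, with Npy1r at 16.6 ± 1.15 CPM, Npy2r at 13.6 ± 1.45 CPM and Npy5r at 3.41 ± 0.297 CPM, the last with 0 counts in the 3 cerebellar libraries (at least 57.1-fold). Sstr4 also had 0 counts there and was at 5.15 ± 0.381 CPM in interneurons. Sstr3 was the exception, at 32.4, 39.4 and 34.7 CPM in cerebellar granule cells against 9.97, 9.25 and 6.18 CPM. Drd1, at 6.81, 5.82 and 17.1 CPM, was highest in interneuron replicate 3.

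Cerebellins are secreted proteins that bridge presynaptic neurexins and postsynaptic delta receptors, and their genes fell into 2 pairs. Cbln3 was at 4011, 4095 and 4028 CPM in the cerebellar libraries and 1.39, 1.42 and 1.45 CPM in interneurons, a log2 fold change of -11.47 (standard error 0.05, adjusted p = 1.3e-13), and Cbln1 was at 2271, 2201 and 2145 CPM against 1.59, 3.70 and 1.58 CPM. Cbln4 was at 59.4, 67.4 and 58.0 CPM in interneurons against 0.0167, 0.0453 and 0.0409 CPM, and Cbln2 at 35, 38.9 and 39.0 CPM against 0.167, 0 and 0.0205 CPM. Over the whole list of cerebellins, neurexins and their partners, 11 of 28 genes were higher in interneurons, against 28.2% of all genes, and 10 higher in cerebellar granule cells, against 17.9% (median log2 fold change 0.32). The neurexophilins, ligands of alpha-neurexins, were also split: Nxph1 and Nxph2 were higher in interneurons, at 236 ± 5.86 and 15.1 ± 1.11 CPM with Nxph2 at 0 counts in the cerebellar libraries, whereas Nxph3 and Nxph4 were 3.93- and 14.7-fold higher in cerebellar granule cells. The neurexin genes Nrxn2 and Nrxn3 were not called, though Nrxn2 passed 2-fold with counts rescaled from TPM (log2 fold change -1.03). Among postsynaptic partners, Lrrtm1 and Lrrtm4 were 28.7- and 30.0-fold higher in interneurons and Lrrtm3 4.40-fold higher in cerebellar granule cells. Gphn, the scaffold of inhibitory synapses, was 2.28-fold higher in cerebellar granule cells (log2 fold change -0.91 with library totals alone, under 2-fold), and Nlgn2, the neuroligin of these synapses, differed 1.58-fold and was not called.

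Genes of the perineuronal matrix were higher in interneurons in 12 of 14 cases, against 28.2% of all genes, with 0 called the other way and a median log2 fold change of 2.96. Hapln1, a link protein, was at 153, 178 and 161 CPM against 0.200, 0.0453 and 0.205 CPM, and Acan, the aggrecan gene of perineuronal nets, at 5.94, 6.06 and 5.79 CPM against 0.0167, 0.0453 and 0.0409 CPM. Bcan and Ptprz1, which glia also express, were 14.4- and 4.29-fold higher. Hapln4 and Tnr did not reach 2-fold, although Tnr did with upper quartile scaling or library totals alone (log2 fold changes of 1.04 and 1.17). Oligodendrocyte and astrocyte marker sums moved in the same direction as this list, and their part in it was not tested.

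Of 23 genes of calcium-binding proteins and calcium sensors, 11 were higher in interneurons, against 28.2% of all genes, and 8 higher in cerebellar granule cells, against 17.9% (median log2 fold change 0.15). Camk4, a nuclear kinase of granule cells, was at 491, 478 and 581 CPM in the cerebellar libraries against 17.6, 16.9 and 22.1 CPM, a log2 fold change of -4.78 (standard error 0.12). The 2 main subunits of calcium/calmodulin kinase II ran against each other, with Camk2a at a log2 fold change of 8.61 and Camk2b at -1.66 (532 ± 18.2 against 1677 ± 6.21 CPM). Nrgn, a calmodulin-binding protein abundant in excitatory forebrain neurons, was at 143, 139.6 and 121 CPM in interneurons against 0.750, 0.430 and 0.798 CPM. Both Camk2a and Nrgn are commonly taken as genes of excitatory cells, and the part of RNA from such cells was not tested. The potassium channel-interacting proteins were split, Kcnip1 and Kcnip2 being 16.5- and 62.5-fold higher in interneurons and Kcnip3 and Kcnip4 5.62- and 8.26-fold higher in cerebellar granule cells. Hpca was 39.0-fold higher in interneurons and its paralog Hpcal1 8.33-fold higher in cerebellar granule cells.

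Genes of translation, the process the series addresses through tRNA, held few calls against the 46.1% of all genes called in either direction. Of 22 cytosolic aminoacyl-tRNA synthetase genes and partners tested, 0 were called higher in interneurons and 2 higher in cerebellar granule cells at 2-fold, and the log2 fold changes ran from -1.07 to 0.74. The 2 were Eprs, the synthetase for glutamate and proline, at 127, 130.1 and 135 CPM in cerebellar granule cells against 62.6, 62.9 and 61.3 CPM (2.10-fold), and Vars, the valine synthetase, at 84.3, 75.4 and 73.9 CPM against 37.8, 35.4 and 39.4 CPM (2.07-fold). With upper quartile scaling or library totals alone both fell short of 2-fold, at log2 fold changes of -0.92 and -0.79 for Eprs and -0.91 and -0.77 for Vars. With library totals alone Dars, the aspartate synthetase, passed 2-fold towards interneurons (log2 fold change 1.03), so that the counts became 1 and 0. Of 15 genes of ribosome rescue and the sensing of stalled ribosomes, 1 was called higher in interneurons and 2 higher in cerebellar granule cells (median log2 fold change -0.63). Gtpbp1, a rescue factor, was at 194, 197 and 189 CPM in cerebellar granule cells against 60.1, 55.8 and 55.8 CPM, a log2 fold change of -1.76 (standard error 0.04, adjusted p = 2.2e-10). Its paralog Gtpbp2 was at 71.2 ± 0.477 against 42.4 ± 1.63 CPM, 1.68-fold, and was not called. Ascc3, a helicase that splits collided ribosomes, was 2.31-fold higher in cerebellar granule cells, a call lost with library totals alone or counts rescaled from TPM (log2 fold changes of -0.93 and -0.71), and Map3k20, a kinase that senses collisions, 2.14-fold higher in interneurons, a call lost without cerebellar replicate 2 or 3 (log2 fold changes of 0.96 and 0.99). Atf4 and Ddit3, targets of the integrated stress response, differed 1.36- and 1.69-fold and were not called, but Ddit3 passed 2-fold with library totals alone (log2 fold change 1.04).

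**Figure D5:**
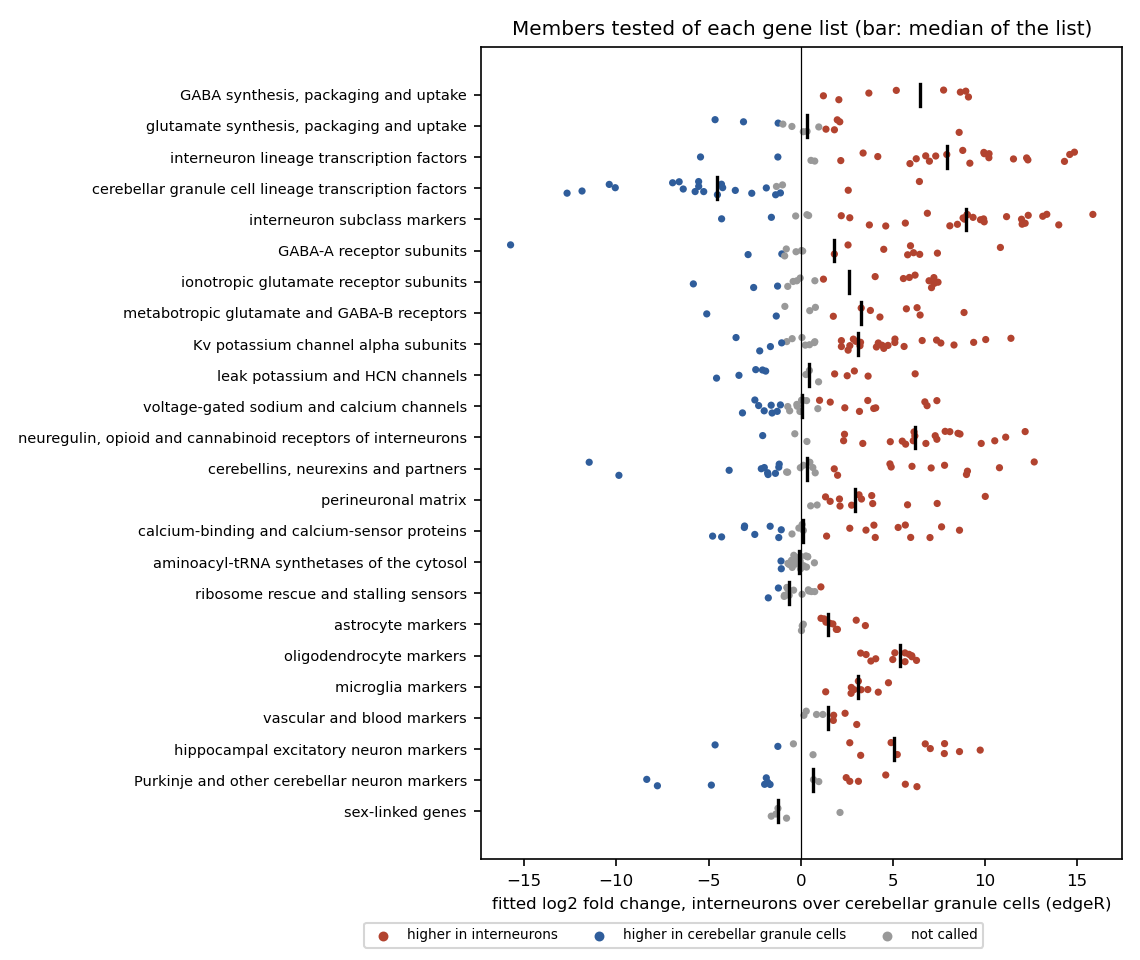
Fitted log2 fold change (interneurons over cerebellar granule cells, edgeR) of each tested member of the 24 gene lists, with colour for the call and a black bar for the median of each list. GABA, interneuron lineage and subclass genes lie mainly to the right of 0 and the granule cell factors to the left, channels and receptors spread to both sides, and the aminoacyl-tRNA synthetase genes stay between -1.07 and 0.74.

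In some genes the transcript that held most of the estimated expression differed between the cells. Among 7579 genes at 10 TPM or more in each of the 6 libraries, the leading transcript was another one in all 3 libraries of each group for 234 genes. In 12 of these a transcript's share of its gene's TPM differed by 50 percentage points or more, with no overlap between the groups. The largest differences were those of Zfp385a, Phactr3, Zfp385b, Slc44a1 and Pdzd4. In Zfp385a, a zinc finger gene, transcript Zfp385a-203 held 20.2%, 18.7% and 18.2% of the gene in interneurons and 88.8%, 87.9% and 87.7% in cerebellar granule cells, and Zfp385a-201 held 78.6%, 80.0% and 80.4% and 10.1%, 12.1% and 12.3%. In its paralog Zfp385b, Zfp385b-211 held 66.9%, 64.7% and 60.1% in interneurons and 0.134%, 0% and 0% in cerebellar granule cells. Phactr3-204, of a phosphatase and actin regulator gene, held 18.2%, 18% and 17.3% and 81.9%, 82.0% and 83.2%. Slc44a1-205, of a choline transporter gene, held 29.8%, 31.4% and 33.0% and 88.2%, 88.4% and 90.0%, and Pdzd4-202 held 68.1%, 71.5% and 71.5% and 15.0%, 12.8% and 17.7%. That the groups do not overlap for these transcripts was a condition of the count, and the shares are given without a test. kallisto divides reads between transcripts of a gene by estimation, so a share also carries the error of that step.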

How the data were processed

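HA-tagged ribosomes were precipitated from cycloheximide lysates of each brain region, and polyA RNA was sequenced. Adapters were removed with cutadapt 3.5, and kallisto 0.46.2 assigned the reads to GENCODE M24 transcripts (GRCm38), per the submitters' processing notes and the study's methods. The deposited values, made by the authors, were estimated counts and TPM per transcript, with transcript lengths, for each library. Estimated counts were summed per gene (55385 genes), rounded to whole numbers and tested with edgeR 4.0.16 (R 4.3.3, quasi-likelihood, TMM scaling, default expression filter, no covariate) between 3 interneuron and 3 batch 1 cerebellar libraries, which left 17063 genes. Of these, 14467 (84.8%) had an adjusted p of at most 0.05 before the 2-fold threshold. Replicates are numbered in the labels without naming animals, so p-values measure the spread between these libraries.

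Genes named are the marker genes, up to 6 members with the largest change in each list, members called against most of their list, members that define a textbook class, and the 10 largest protein-coding changes in each direction at 50 CPM or more. Those 10 were taken among called genes whose groups did not overlap. The members and gene lists were chosen with earlier results of these data known. Transcript shares used deposited TPM. On simulated data (16619 genes), 96 of 100 genes changed 2-fold and 100 of 100 changed 4-fold were recovered, and 17 of 16419 unchanged genes tested had an adjusted p of at most 0.05. The planted changes were few, balanced in direction and limited to genes above a minimum level. In the data 84.8% of genes had an adjusted p of at most 0.05, so the simulation does not test scaling under such broad differences. Library sums of the 12 oligodendrocyte and other marker lists used plain CPM. Alternatives used DESeq2 1.42.0, limma 3.58.1, other scalings, filters, libraries and thresholds. For 22 symbols a second gene identifier was also tested, and levels are those of the identifier with more counts. Some genes that the rule would name are not reported here, although list counts and medians include them.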

Additional observations from a re-analysis of the deposited data

How the results depend on the processing

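Across alternatives, 3387 to 6195 genes were called higher in interneurons and 2182 to 3477 higher in cerebellar granule cells, except with limma on log2(TPM + 1), which called 3335 and 1870, and 769 and 204 at 8-fold. A pseudocount of 1 TPM shrinks the change of low genes. Leaving out each library in turn gave 4820 to 5070 and 3092 to 3188 genes, 2435 to 2606 and 474 to 503 at 8-fold, log2 fold changes of 8.89 to 9.05 for Gad2 and -15.93 to -15.56 for Gabra6, 298 to 306 list members called (299 with all libraries), and 13 to 15 genes in which the leading transcript differed with a share moving by 50 percentage points or more. That last count was 12 of 7579 genes at 10 TPM, 36 of 11520 at 1 TPM and 6 of 2826 at 50 TPM. With the replicate number as a block, 4807 and 3046 genes were called, but same-numbered samples correlated by only 0.0431 to 0.0617, so the numbers were not taken as pairs, although each sample correlated best with its own number. Of 263 named genes under 19 settings, 4888 values stayed on their side of the threshold, 34 passed it, 51 fell short and 17 changed sign, in 11 genes of which none was called in the comparison reported. On the log2 scale these were Grin1 with upper quartile scaling (0.12), library totals alone (0.26), the stricter filter (0.0403), all cell types in the fit (0.000557) and limma (0.12); with library totals alone Grin2a (0.0731), Nos1 (0.00936) and Scn8a (0.0722); within batch 2 Acta2 (-0.14), Fos (-0.0452) and Scn1a (-0.0510); Scn1a with a batch term (-0.15); leaving out 1 replicate, Scn1a (-0.0209 without cerebellar replicate 2, range to 0.0689) and Kcnc4 (-0.0416 without cerebellar replicate 3, range to 0.11); Nrxn3 with counts rescaled from TPM (-0.12); and Ddx3y (0.60) and Eif2s3y (0.81) with limma. The cause was not tested. DESeq2 called 4769 and 2958 genes. At 45944013 to 66185898 counts per library, genes with 1 to 3 counts in a group have ratios known only within wide counting intervals.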

Other observations

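Beyond the genes already given, interneuron replicate 3 was the highest of the 3 interneuron libraries for other genes best known from striatal projection neurons, which were chosen after their values were seen. Pdyn, the dynorphin precursor, was at 8.62, 8.28 and 26.1 CPM in replicates 1 to 3, and Rgs9, a regulator of G protein signalling, at 9.28, 8.31 and 28.8 CPM. Each remained called higher in interneurons without that library, with log2 fold changes of 7.11 and 1.31 against 7.87 and 2.12 with it. Prdm16, a zinc finger factor, went the other way at 25.5, 20.7 and 7.67 CPM. Fos, an immediate early gene, set replicate 1 apart, at 5.77, 39.8 and 41.2 CPM. The pools also differ in sex, and whether sex, dissection or another difference between pools goes with these values was not tested.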
